A study of Homo sapiens with 8 samples.

Results

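The butyrophilin family was followed in EndoC-βH5 cells, an established human beta-cell line, through its 5 listed members BTN2A1, BTN2A2, BTN3A1, BTN3A2 and BTN3A3. They were chosen by gene name and are 5 of the 16525 genes of the expression table. RNA came from 4 control cultures left without cytokines and 4 cultures given a mixture of TNFα at 1000 U/mL, IFNγ at 1000 U/mL and IL-1β at 50 U/mL, all harvested at 48 h. Values are CPM, the read count of a gene scaled by the total reads of its library. Each control library shares the first part of its column name with 1 cytokine library, and these pairs are called A, B, C and D here. All samples come from a single line, and the labels do not say that the libraries came from independent passages, so p-values measure the spread between these samples only.

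Butyrophilins are membrane proteins of the immunoglobulin superfamily related to the B7 co-stimulatory ligands. BTN2A1 and BTN3A1 act together to present phosphoantigens, small metabolites of the mevalonate and microbial isoprenoid pathways, to γδ T cells. BTN3A1 binds the phosphoantigen through its intracellular domain, BTN3A2 lacks that domain but pairs with BTN3A1, and BTN3A3 is the closest relative of both. BTN2A1 is a ligand of the γδ T-cell receptor, and BTN2A2 is known for restraining T-cell activation.

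All 5 members were higher in the cytokine-treated cells, and the rise was unequal. The 3 BTN3A genes rose by log2 fold changes of 3.83 to 5.26, BTN2A2 rose by 1.55 and BTN2A1 by 0.66. In bulk RNA, a change in the number of cells that express a gene and a change in its RNA per cell cannot be told apart. A gene was called changed at an absolute log2 fold change above 0.5 with a Benjamini-Hochberg adjusted p below 0.05 in limma on log2(CPM + 0.1). All 5 members were called higher, beside 9.52% of all listed genes. In all 5 the lowest cytokine library lay above the highest control library, as it did in 10.8% of listed genes. The exact permutation p of each member was 0.0286, 2-sided and the smallest that 4 against 4 libraries allow.

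The genes lie in 1 cluster on chromosome 6 (GRCh38), all on the plus strand. From left to right they are BTN3A2 (ENSG00000186470, chr6:26365159-26378320), BTN2A2 (ENSG00000124508, chr6:26383096-26394874), BTN3A1 (ENSG00000026950, chr6:26402237-26415216), BTN3A3 (ENSG00000111801, chr6:26440472-26453415) and BTN2A1 (ENSG00000112763, chr6:26457904-26476621). No other gene of the GENCODE 29 annotation overlaps them. The order along the chromosome is not the order of the responses, since BTN2A2 lies between BTN3A2 and BTN3A1.

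RefSeq promoter entries (GRCh38.p14) matched 3 of the 5 members, BTN3A2, BTN3A3 and BTN2A1, and none was held for BTN2A2 and BTN3A1. The 150 bases before the annotated start are shown because members that moved by very different amounts carry the same pair of motifs. Capitals mark the X box (CCNAGCAAC) and the CCAAT box on either strand (CCAAT or ATTGG). In HLA class I and class II promoters, the X box is bound by the RFX complex and the CCAAT box by NF-Y.
BTN3A2, chr6:26365048-26365197, plus strand: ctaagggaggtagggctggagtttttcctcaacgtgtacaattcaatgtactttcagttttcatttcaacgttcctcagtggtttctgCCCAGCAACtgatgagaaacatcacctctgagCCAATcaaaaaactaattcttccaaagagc
BTN3A3, chr6:26440354-26440503, plus strand: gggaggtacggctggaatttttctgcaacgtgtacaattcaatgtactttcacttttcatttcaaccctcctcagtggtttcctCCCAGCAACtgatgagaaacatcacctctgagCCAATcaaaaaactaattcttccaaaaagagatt
BTN2A1, chr6:26457805-26457954, plus strand: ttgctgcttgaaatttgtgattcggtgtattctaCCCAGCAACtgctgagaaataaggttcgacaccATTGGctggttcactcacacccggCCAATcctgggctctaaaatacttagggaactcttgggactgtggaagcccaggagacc

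Each of the 3 stretches held 1 X box, with 23 bases to the CCAAT box in BTN3A2 and in BTN3A3. In BTN2A1, 24 bases separated the X box from an ATTGG and 48 bases from a CCAAT. The BTN3A2 and BTN3A3 stretches were 88.3% identical in a global alignment, and their longest shared run was 58 bases. BTN2A1 shared 46.7% with BTN3A2 and 48.4% with BTN3A3, and the longest run it shared with either was 11 bases that hold the X box. A second BTN3A2 entry, with its start downstream, held neither motif.

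Over the full promoter windows, from 250 bases before to 50 after the start, 1.76% of the 35116 RefSeq promoters held the X box on either strand, 34.6% held CCAAT and 0.726% held both. The core of the interferon-stimulated response element, TTTC repeated after any 2 bases, was in 3.57% of promoters. Among the 3 members with a promoter entry it was only in BTN3A3, after the start. The IFNγ-activated site TTCNNNGAA was in 7.66% of promoters and in none of the windows of these 3 members. BTN2A2 and BTN3A1 had no window to search. A match describes these letters only, and sequences that depart from them at any base were not counted. The BTN3A2 and BTN3A3 stretches above hold tttcagtttt and tttcactttt, which miss the response element core at its last base. The X box was added to the search after the promoters had been seen.

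BTN2A1 was at 31.2, 38.1, 46.0 and 42.2 CPM in control libraries A to D, and at 57.3, 53.7, 72.0 and 64.6 CPM in cytokine libraries A to D. All 4 cytokine libraries lay above the highest control library, by a modest step. The mean went from 39.4 ± 6.33 to 61.9 ± 8.09 CPM (SD, n = 4), a 1.57-fold rise. The log2 fold change was 0.66 (SE 0.15, 95% confidence interval 0.33 to 0.98, limma adjusted p 0.00685). BTN2A1 stood near the edge of the call: against a null of changes up to 0.5 (limma treat) its adjusted p was 0.708, and 4 of the 5 members were called, beside 4.43% of genes called higher.

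BTN3A1 was at 10.9, 11.9, 11.9 and 16.0 CPM in the 4 control libraries, and at 188, 187, 161 and 217 CPM in cytokine libraries A to D. Library D was the highest of both conditions, and the 2 conditions were far apart. The mean rose from 12.7 ± 2.29 to 188 ± 23.1 CPM (SD, n = 4), which is 14.8-fold. The log2 fold change was 3.89 (SE 0.15, 95% confidence interval 3.56 to 4.21, limma adjusted p 1.74e-08). Among all listed genes it was the rise of rank 143.

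BTN3A2 was at 4.81, 4.59, 3.92 and 4.42 CPM in control libraries A to D, and at 171, 176, 177 and 170 CPM in cytokine libraries A to D. The 4 cytokine libraries lay very close together, with a coefficient of variation of 1.96%, against 8.53% in control libraries that held only 197 to 226 reads. Counting error alone would give 1.09% and 6.80%. The mean rose from 4.44 ± 0.379 to 174 ± 3.40 CPM (SD, n = 4), a 39.1-fold rise of rank 64 among listed genes. The log2 fold change was 5.26 (SE 0.11, 95% confidence interval 5.02 to 5.51, limma adjusted p 8.74e-10).

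BTN3A3 was at 4.62, 4.40, 5.77 and 5.57 CPM in control libraries A to D, and at 78.2, 81.6, 60.7 and 74.8 CPM in cytokine libraries A to D. All 4 treated libraries lay far above the controls, and their order differed between the conditions: control libraries C and D were above A and B, and treated libraries C and D below them. The mean rose from 5.09 ± 0.682 to 73.8 ± 9.16 CPM (SD, n = 4), 14.5-fold. The log2 fold change was 3.83 (SE 0.15, 95% confidence interval 3.51 to 4.15, limma adjusted p 1.81e-08), of rank 146.

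BTN2A2 was at 2.76, 1.23, 1.95 and 2.42 CPM in control libraries A to D, from 58 to 129 reads, and at 5.58, 5.62, 6.18 and 6.93 CPM in cytokine libraries A to D. Control B was the lowest and control A the highest of the controls, and both lay below every treated library. The mean rose from 2.09 ± 0.664 to 6.08 ± 0.633 CPM (SD, n = 4), 2.91-fold. The log2 fold change was 1.55 (SE 0.24, 95% confidence interval 1.01 to 2.09, limma adjusted p 0.000842). Within pairs it ranged from 0.99 in A to 2.11 in B, the widest range of the 5 members.

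**Figure D1:**
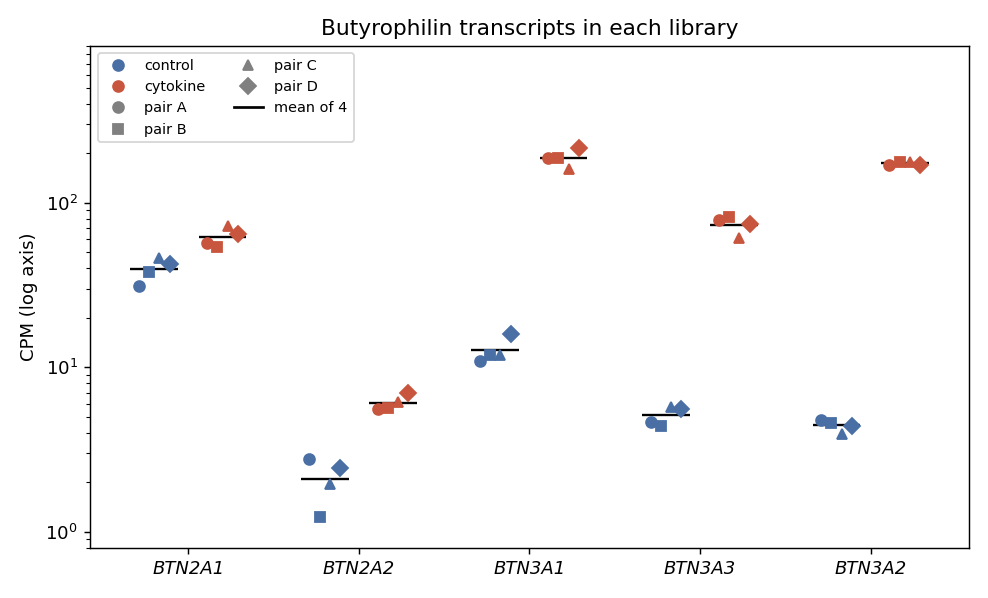
CPM of the 5 butyrophilin genes in each library, on a log axis; points are the 4 libraries of a condition and bars the mean. In every gene the cytokine libraries lie above the control libraries, with the widest gap in BTN3A2, from a mean of 4.44 to 174 CPM, and the narrowest in BTN2A1, from 39.4 to 61.9 CPM.

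Every member rose in 4 of 4 pairs. Pairs A and B carry 1 ending in their column names and pairs C and D another, so the change was also taken within each of these sets. In A and B the log2 fold changes were 0.68 for BTN2A1, 1.55 for BTN2A2, 4.03 for BTN3A1, 5.18 for BTN3A2 and 4.12 for BTN3A3. In C and D they were 0.63, 1.55, 3.74, 5.35 and 3.55 in the same order. BTN3A3 differed most, by -0.57 (SE 0.20) in C and D against A and B, with an interaction p of 0.0174 in limma that did not pass adjustment over all genes (adjusted p 0.999).

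Whether the members moved by different amounts was tested on the ratio of 2 members within a library, taken as the difference of their log2(CPM + 0.1), in which the scaling of a library cancels apart from the pseudocount. BTN3A2 rose more than each of the others. Against BTN3A1 its ratio rose by 1.38 on the log2 scale (SE 0.18, 2.60-fold), and against BTN3A3 by 1.43 (SE 0.18, 2.70-fold). Against BTN2A1 the ratios rose by 4.61 for BTN3A2, 3.23 for BTN3A1 and 3.18 for BTN3A3. These and the ratios of the BTN3A genes to BTN2A2 made up 8 of the 10 pairs of members, each with an exact permutation p of 0.0286 (adjusted 0.0357 over the 10).

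The other 2 pairs did not pass. BTN2A2 rose more than BTN2A1 by 0.89 (SE 0.31, exact p 0.0571, adjusted 0.0635), in 4 of 4 library pairs. BTN3A1 against BTN3A3 changed by 0.05 (SE 0.13, exact p 0.657), and the 4 library pairs ranged from -0.22 to 0.37, so a difference of that size in either direction cannot be told from the spread.

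Levels between genes were compared per kilobase of exon. In control cells BTN2A1 led with 10.4 ± 1.67 CPM per kilobase (SD, n = 4), followed by BTN3A1 at 2.29 ± 0.412, BTN3A3 at 0.90 ± 0.120, BTN3A2 at 0.630 ± 0.0538 and BTN2A2 at 0.327 ± 0.104. No neighbours in this order overlapped. With the length of the longest transcript in place of all exons, BTN3A2 came before BTN3A3.

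In cytokine-treated cells the order on the same scale was BTN3A1 at 33.9 ± 4.16 CPM per kilobase (SD, n = 4), BTN3A2 at 24.7 ± 0.483, BTN2A1 at 16.3 ± 2.14, BTN3A3 at 13.1 ± 1.62 and BTN2A2 at 0.950 ± 0.0989. The libraries of BTN2A1 and BTN3A3 overlapped, and the other neighbours did not. The level summed over the 5 members rose from 12.1 to 16.2 CPM per kilobase in the control libraries to 84.8 to 94.7 in the treated ones.

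The makeup of that sum turned over. BTN2A1 supplied 71.3 ± 3.20% of it in control cells (SD, n = 4) and 18.4 ± 2.78% after cytokines. BTN3A2 went from 4.42 ± 0.960% to 27.8 ± 1.71%, and BTN3A1 from 15.8 ± 1.96% to 38.0 ± 2.95%, so BTN3A1 took the largest share. BTN3A3 went from 6.20 ± 0.458% to 14.7 ± 1.67% and BTN2A2 from 2.30 ± 0.928% to 1.07 ± 0.0859%. Each of the 5 shares had an exact permutation p of 0.0286 (adjusted 0.0286 over the 5). For BTN2A2 the share fell although its level rose, and the call was lost when any single treated library was left out (adjusted p 0.0571).

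**Figure D2:**
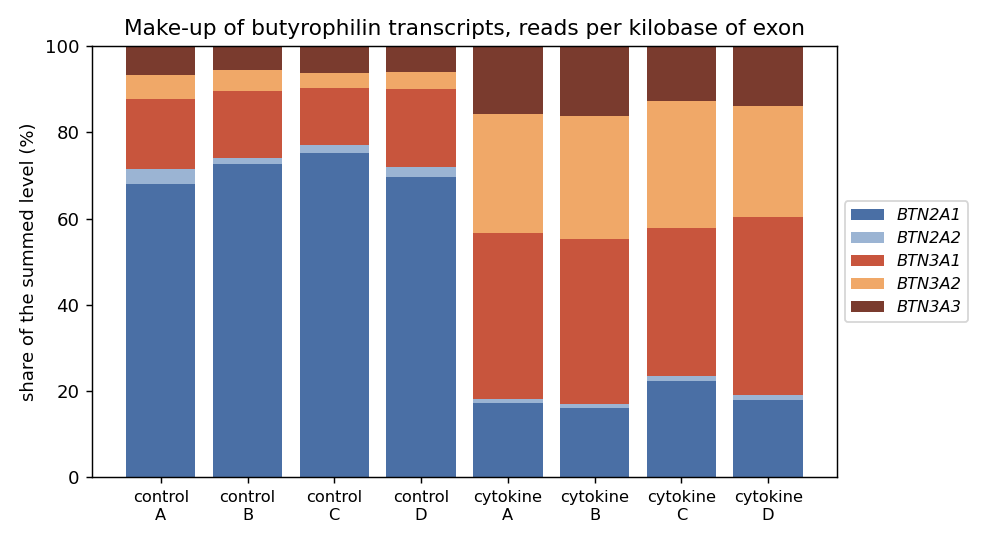
Share of each member in the summed CPM per kilobase of the 5 genes, as stacked bars for each of the 8 libraries. BTN2A1 holds the largest part of every control bar, a mean of 71.3%, and a mean of 18.4% of the cytokine bars, where BTN3A1 and BTN3A2 hold 38.0% and 27.8%.

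The members share stretches of sequence, and reads from those stretches could be split between genes or left uncounted. Of all 100-base windows of the transcripts of BTN3A3, 5.60% recurred exactly in another gene, mainly BTN3A2. The share was 4.89% for BTN3A2, 2.76% for BTN3A1, 0.662% for BTN2A1 and 0.355% for BTN2A2. The number of reads affected was not measured, so the division of reads among the 3 BTN3A genes is uncertain.

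Relatives of the family moved in both directions. Of 14 other butyrophilin and B7-like genes, 7 were in the table, 1 was called higher and 2 were called lower, beside 9.52% and 17.5% of all genes, with a median log2 fold change of -0.29 beside -0.17 over all genes. BTN2A3P, a transcribed pseudogene located between BTN3A1 and BTN3A3, rose from 0.277 ± 0.0992 to 1.29 ± 0.240 CPM (SD, n = 4), with a log2 change of 1.91 (limma adjusted p 0.000697). Its highest control library, at 0.371 CPM, lay below the 0.5 CPM needed for listing, and its lowest treated library was at 1.02 CPM. It was thus listed only through treated libraries, and its call is not independent of that filter. BTNL9, a butyrophilin-like gene, fell from 1.43 to 0.457 CPM with overlapping libraries, a log2 fold change of -1.51 (limma adjusted p 0.0110). Its lowest control library, at 0.804 CPM, passed the 0.5 CPM needed for listing, while its treated mean lay below it. BTNL9 was thus listed through its control libraries, and its call is not independent of that filter either. ERMAP, the erythroid relative that carries the Scianna blood group, fell from 21.1 to 13.8 CPM with a log2 fold change of -0.64 (limma adjusted p 0.0302), a call not made under TMM scaling. BTN1A1, the milk-fat butyrophilin, was not called (0.50, adjusted p 0.534), nor was CD276, a B7 family checkpoint ligand (-0.29, adjusted p 0.104).

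**Figure D3:**
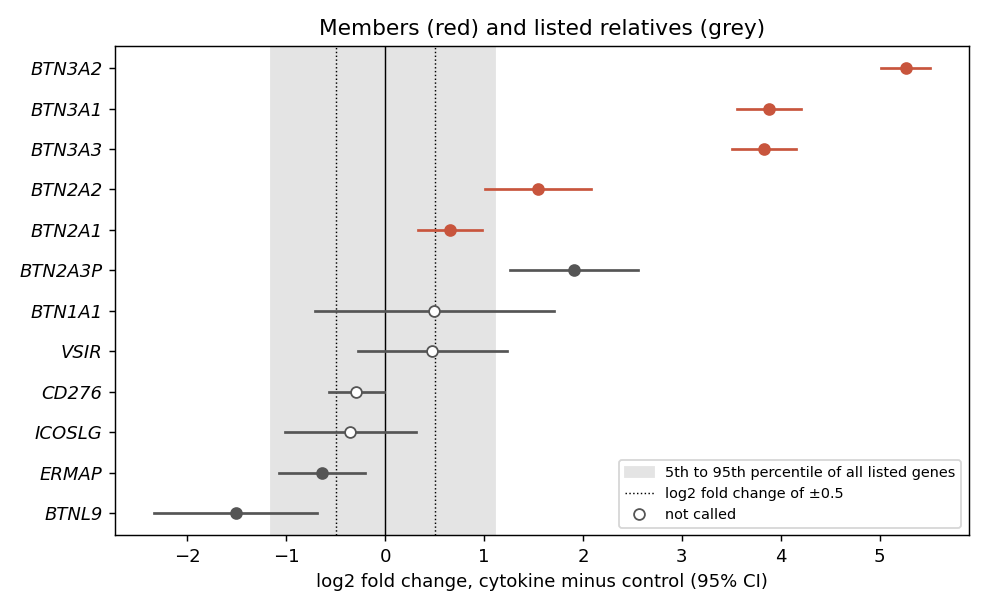
Log2 fold change, cytokine minus control, of the 5 members (red) and the 7 listed relatives (grey), with 95% confidence intervals; filled points passed the call. The grey band spans the 5th to 95th percentile of all genes, -1.16 to 1.11; BTN2A1 lies inside it and the other 4 members lie to its right.

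Regulators that act on X box, interferon and CCAAT elements were followed next. Of 16 such genes, all in the table, 8 were called higher, beside 9.52% of all genes, and the other 8 were not called. Their median log2 fold change was 0.84, beside -0.17 over all genes. NLRC5, the transactivator of HLA class I genes, rose from 2.06 ± 1.37 to 420 ± 54.4 CPM (SD, n = 4), with a log2 change of 7.80 (limma adjusted p 6.45e-08). IRF1, an interferon-induced transcription factor, rose by 6.03. Others called higher were IRF8 (4.21), IRF9 (4.03), STAT2 (2.05), STAT3 (1.92) and IRF2 (1.26).

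The subunits that sit on the X box and the CCAAT box were among those not called. RFX5, the DNA-binding RFX subunit, was at 0.22 (limma adjusted p 0.212), RFXAP at -0.21 (adjusted p 0.523) and RFXANK at -0.36 (adjusted p 0.0719). NFYA, a subunit of NF-Y, was at 0.43 (limma adjusted p 0.0576) and was called under TMM scaling, while NFYB and NFYC were at 0.03 and 0.07.

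Genes outside the family that share the motifs were counted for comparison. Of 124 other tested genes with both in a promoter, 14 (11.3%) were called higher and 13 (10.5%) lower, with a median log2 fold change of -0.01. Among the 11725 tested genes with any promoter entry, 9.69% were called higher and 17.2% lower, with a median of -0.14.

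The mevalonate pathway makes the isoprenoid pyrophosphates that BTN3A1 senses. Of its 10 genes, all listed, limma called 0 higher and 0 lower, beside 9.52% and 17.5% of all genes. Of these 10, 0 had an unadjusted p below 0.05. Their median log2 fold change was -0.06, beside -0.17 over all genes. With the 4 pairs as a replicate block, limma again called 0 of them, and 5 had an unadjusted p below 0.05. HMGCS1, the cytosolic HMG-CoA synthase, was at 0.49 (limma adjusted p 0.130). It was called higher under TMM scaling, in edgeR and in DESeq2, as the 1 gene of the pathway. FDPS, which makes farnesyl pyrophosphate, was at 264 CPM in control and 263 CPM in treated cells (0.02).

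Of 8 genes listed as possible partners of butyrophilins or γδ T-cell receptors, 1 was called higher and 0 lower. Over all genes 9.52% were called higher and 17.5% lower, so a count of 1 in 8 says little about the list. CD47, the ligand that restrains phagocytosis through SIRPα, rose from 21.3 to 77.1 CPM, a log2 fold change of 1.87 (limma adjusted p 6.67e-06). PPL, the cytoskeletal linker periplakin, was at -0.09, and RHOB, a small GTPase tied to BTN3A1 activation, at -0.04. ABCA1, a lipid exporter, and MAP4, a microtubule-binding protein, were both at 0.02.

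**Figure D4:**
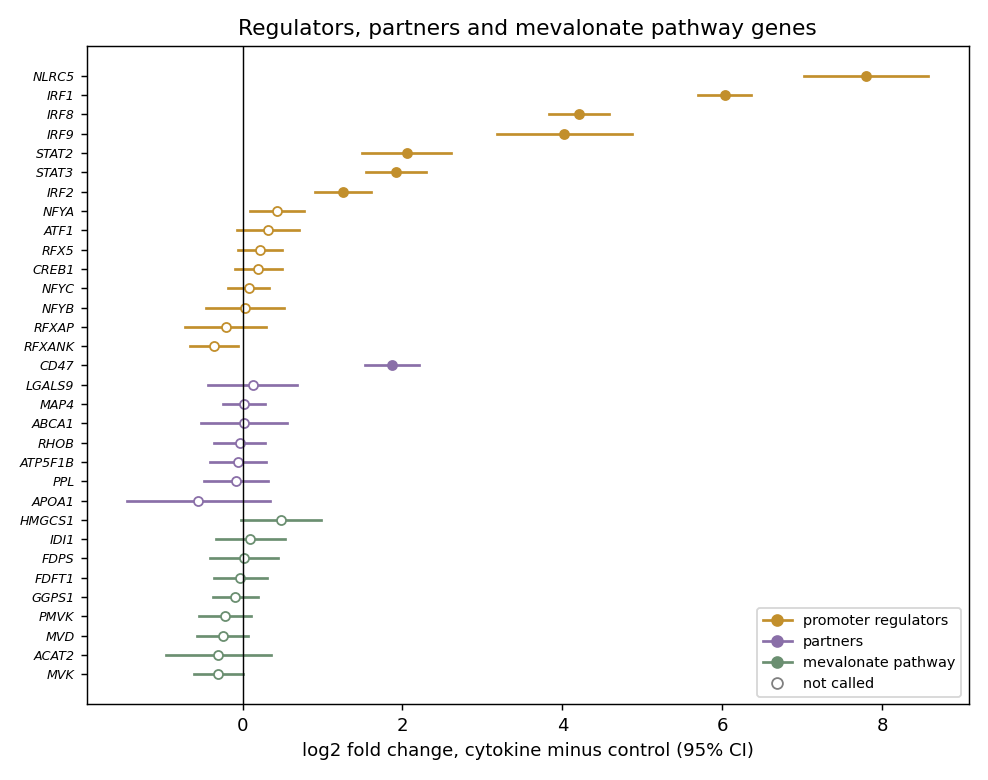
Log2 fold change, cytokine minus control, of promoter regulators, partners and mevalonate pathway genes, with 95% confidence intervals; filled points passed the call, and genes that are not reported are left out. NLRC5 (7.80) and IRF1 (6.03) lead, CD47 (1.87) is the filled partner, and every mevalonate gene shown is open.

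The rise was also set beside the neighbourhood. Within 500 kb of a member on chromosome 6, 20 other genes were tested, 9 of them histone genes, and 5 were called higher and 1 lower. Their median log2 fold change was 0.34. Over all genes 9.52% were called higher and 17.5% lower, with a median of -0.17. The nearest on the left, H4C8, a histone H4 gene (chr6:26277609-26285638), rose from 0.351 to 1.89 CPM (2.14, limma adjusted p 9.11e-05). Like BTN2A3P, H4C8 had a control mean below the 0.5 CPM needed for listing, so its call is not independent of that filter. The nearest on the right, BTN1A1, is the relative described above. The other genes called higher were BTN2A3P and the histone genes H1-2 (1.79), H2AC8 (0.93) and H3C6 (0.86), and LINC02980 was called lower (-0.73).

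**Figure D5:**
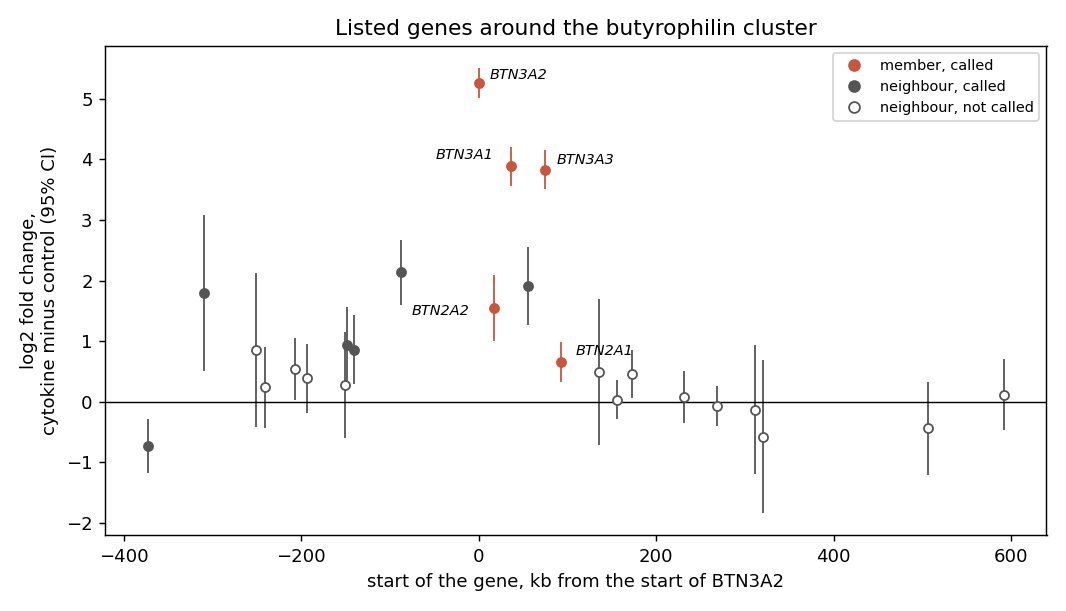
Log2 fold change, cytokine minus control, with 95% confidence intervals, of the 5 members and 20 other genes, against the distance of the gene start from that of BTN3A2 in kb; filled points passed the call. The 3 BTN3A genes, at 3.83 to 5.26, lie above every neighbour, and BTN2A1 at 0.66 lies below H4C8 at 2.14.

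Depth was similar between conditions, with 36956294 to 40117636 reads on listed genes in control libraries and 36577438 to 39348935 in treated ones. Of 12 beta-cell markers, all were in the table, with a summed level of 25233 to 37330 CPM in control and 29702 to 52621 CPM in treated libraries. Limma called 8 of them lower, beside 17.5% of all genes, and under TMM scaling 6 lower and 2 higher. Of 11 markers of T cells, γδ receptor genes included, none was listed, and of 9 markers of other immune cells only CD14 was, at a summed 1.07 to 3.26 CPM in control and 1.23 to 1.95 CPM in treated libraries. Of 11 markers of other pancreatic cells, 7 were listed and 1, CPA1, was called lower. Their summed level was 567 to 2270 CPM in control and 655 to 2080 CPM in treated libraries, so it varied widely within a condition. GCG alone spanned 19.8 to 222 CPM in the control libraries. With the 4 pairs as a replicate block, GCG and CPA1 were called lower and PPY higher, and of the beta-cell markers IAPP was called higher beside 8 called lower.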

How the data were processed

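RNA of EndoC-βH5 cells was sequenced with a strand-specific mRNA kit. The authors cleaned the reads, aligned them to GRCh38 with TopHat2 2.1.1, counted them with HTSeq 0.9.1 on Ensembl release 107 and deposited CPM, listing genes that passed 0.5 CPM in 4 or more samples. A further 4 columns stayed unused. All values were whole multiples of 1 read within 0.01 read, 0.0196 to 0.0214 CPM, so reads were recovered. A count of 0 allows 3 reads, 0.0587 to 0.0641 CPM (counting error only).

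limma 3.58.1 in R 4.3.3 was run on log2(CPM + 0.1) with an intensity trend and no block, with Benjamini-Hochberg adjustment over 16525 genes. The thresholds (0.5 in log2 fold change, FDR 0.05) are those of the methods. The added 0.1 CPM shrinks log2 differences between libraries in low genes. The fit averages logs, so its fold change of a low gene can still exceed that of a count model. For BTN2A2 it was 1.547, and 1.538 in edgeR without TMM. Ratios, shares and single genes used 2-sided exact permutation tests. Alternatives were edgeR 4.0.16 and DESeq2 1.42.0 on recovered reads, other scalings, pseudocounts and filters, and each library left out. Of the fits across genes, the main limma fit, edgeR with TMM and DESeq2 were tested on simulated data, and the other settings were not. Fits across many genes used all listed genes.

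The members, gene lists and tests were chosen with earlier results of these data known. Named genes are the members, genes of the lists, called and nearest genes within 500 kb, and the 5 genes most like the members; some genes that this rule covers are left out of the text and figures. Columns carry no replicate number; pairs A to D come from the first part of their names. Deviations from group means correlated within pairs by 0.457, 0.504, 0.748 and 0.681, so a fit with the pairs as a block was run as an alternative, while the main tests are unpaired. Control A also correlated with treated B by 0.447 and control B with treated A by 0.489. Lengths and coordinates are those of GENCODE 29, in which 16160 genes matched by chromosome. Python 3.11.15 with pandas 2.3.3, numpy 2.4.6 and matplotlib 3.10.9 wrote the tables and figures.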

Additional observations from a re-analysis of the deposited data

How the results depend on the processing

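The 5 members were called higher under every alternative run except limma treat, where BTN2A1, at 0.66, missed the threshold and 4 were called. With each library left out in turn, the log2 fold changes ranged from 0.55 to 0.74 for BTN2A1, 1.33 to 1.69 for BTN2A2, 3.82 to 4.00 for BTN3A1, 5.21 to 5.30 for BTN3A2 and 3.77 to 3.92 for BTN3A3, with a highest limma adjusted p of 0.0215, for BTN2A1. Over all alternatives they ranged from 0.55 to 0.82, 1.22 to 1.77, 3.74 to 4.05, 5.01 to 5.45 and 3.55 to 4.12. Within A and B and within C and D, values moved beyond the spread for BTN3A2 (5.18 and 5.35) and BTN3A3 (4.12 and 3.55), for their ratio (1.06 and 1.80) and for the share of BTN3A3 (9.85 and 7.09 percentage points); the cause was not tested. With the pairs as a replicate block, no call of a member changed: the values of 0.66, 1.55, 3.89, 5.26 and 3.83 had limma adjusted p from 1.55e-15 to 4.71e-06. Without single libraries the ratio of BTN2A2 to BTN2A1 rose by 0.68 to 1.14, passing only without control A (adjusted p 0.0317), that of BTN3A1 to BTN3A3 changed by -0.033 to 0.13, below 0 without control C (-0.033) or treated D (-0.0080), and the share of BTN2A2 changed by -1.53 to -0.81 points. Among all genes limma called 4470, of which 1574 higher. TMM scaling, which moved the median of all genes from -0.17 to -0.01, called 2168 of 4079 higher, and limma treat called 1378. In the lists, TMM scaling and edgeR with TMM both lost the calls of ERMAP, NKX2-2 and PAX6 and gained HMGCS1, NFYA, NKX6-1 and IAPP as higher, and edgeR also lost KCNJ11. The 58 to 129 control reads of BTN2A2 limit its precision.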

Other observations

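Across the 8 libraries, 14678 genes that averaged 1 CPM or more were compared with the mean log2(CPM + 0.1) of the 5 members. The highest Pearson correlations were those of SP100, a nuclear body protein (0.9993), PARP14, an ADP-ribosyltransferase (0.9992), TNFRSF14, the receptor HVEM (0.9989), JAK2, a cytokine receptor kinase (0.9987), and MX1, an antiviral GTPase (0.9986). SP100 averaged 0.0148 CPM in control libraries, below the CPM of 1 read, and 2.29 CPM in treated ones. It passed the filter of 1 CPM only through the treated libraries, and its control values rest on the pseudocount. With 2 conditions such values mainly follow the gap between them, and 110 genes were above 0.99.

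The X box and CCAAT promoter genes called higher outside the family included CFAP126 (log2 fold change 3.43), CFAP99 (1.52) and RPS6KA5 (1.49), each named after its value was seen as the highest of the 14.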
